A study of Mus musculus with 44 samples.

Results

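The cytosolic ribosomal proteins are the protein subunits of the ribosome that translates nuclear-encoded mRNA. They were taken here as the protein-coding genes of GENCODE release M21 whose symbol is Rpl or Rps followed by a digit, together with Rplp0, Rplp1, Rplp2 and Rpsa, without the Rps6k kinases and without symbols carrying -ps. The rule gave 86 of the 50714 genes that both sets of libraries list, 34 of the small subunit and 52 of the large subunit by symbol. Rps19bp1, a protein that binds Rps19, and paralogs such as Rpl3l, Rpl10l, Rpl39l and Rps27l meet the rule by their symbols. Among the members is Rpl10a, a large-subunit protein whose GFP fusion is the handle of the purification.

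RNA was sequenced from 44 libraries of mouse dorsal cortex and hippocampus, taken at postnatal day 28 to 29. All mice carried CX3CR1-CreERT2 (+/-), which puts a tamoxifen-inducible Cre recombinase under the microglial Cx3cr1 promoter, and RPL10a-GFP flox (+/-). The series' design text gives the second allele as fl/fl. Treated mice received tamoxifen at 100 mg/kg on postnatal days 15, 17 and 19. Controls were given the oil and ethanol vehicle by their labels, whereas the design text names them untreated. Each letter had 4 fractions. Input was RNA of the tissue homogenate and MG_TRAP the GFP immunoprecipitate from such homogenate (translating ribosome affinity purification, TRAP). SN_input was RNA of a synaptosome preparation, which holds pinched-off nerve endings with adhering processes, and PeMP_TRAP was the GFP immunoprecipitate from it, named SN_TRAP in part of the libraries. Letters A, B and C were controls, and D through K were tamoxifen mice. Letters A to F (24 libraries) formed a first set and G to K (20 libraries) a second set by title style, and all control libraries were in the first set, so control and second-set libraries were not compared. The Cx3cr1 promoter is also active in border macrophages, and whether a letter stands for 1 animal is not given, so a p-value measures the spread between these samples only.

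In cells, ribosomal protein mRNAs are made in amounts that match each other, and many begin with a terminal oligopyrimidine (TOP) tract, a C at the cap followed by a run of C and T. The tract couples their translation to growth signalling through mTORC1 and the RNA-binding protein Larp1. In neurons and glia these mRNAs also lie in processes far from the cell body.

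To show a start-site feature that many ribosomal protein mRNAs are known for, 30 bases of sense-strand sequence around the RefSeq transcription start (GRCm38.p6) are printed with the tract in capitals. Rps9, Rpl35, Rpl28 and Rpsa are among the largest changes of a comparison below, Rplp2 is a stalk protein, and Rpl10a is the tagged protein. The motif was a run of at least 5 letters C or T that opens with C and begins within 10 bases of the start, searched on the sense strand alone. The first 5 sequences hold it and the last, Rpsa, the laminin receptor-related protein of the small subunit, does not.
Rps9 (chr7:3704026-3704055, plus strand): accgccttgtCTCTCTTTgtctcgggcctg
Rpl35 (chr2:39005117-39005146, minus strand): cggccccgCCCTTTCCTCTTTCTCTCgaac
Rpl28 (chr7:4792950-4792979, plus strand): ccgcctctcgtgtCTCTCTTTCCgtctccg
Rplp2 (chr7:141447636-141447665, plus strand): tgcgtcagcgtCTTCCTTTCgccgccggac
Rpl10a (chr17:28328456-28328485, plus strand): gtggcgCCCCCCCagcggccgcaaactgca
Rpsa (chr9:120127751-120127780, plus strand): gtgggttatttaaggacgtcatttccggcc
Of the 66 members found in the RefSeq promoter table, 40 (60.6%) held such a run, against 34.9% of all 17491 protein-coding genes in it. In 7 of the 40 the run ended before the listed start and so is not in an RNA that begins there. Rpl10a is 1 of these: its run of 7 letters, C alone, begins 9 bases before the start, and it was present at 1 of the 2 listed starts. No match says only that these letters are not in the window.

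Assigned reads ranged from 740679 to 17314952 per library in the first set and from 8329612 to 35427238 in the second. Reads with more than 1 alignment, which the gene counts leave out, made up 24.9% to 37.3% of the reads in first-set tamoxifen Input and 14.2% to 15.8% in second-set Input, and 30.6% to 47.3% against 13.2% to 15.3% in MG_TRAP. In SN_input the ranges were 33.1% to 41.1% and 38.5% to 40.1%, and in PeMP_TRAP 32.3% to 58.2% and 38.6% to 51.5%, so there the sets overlapped. Genes encoded in mitochondria reached 66.0% of assigned reads in 1 first-set tamoxifen SN_input library. The 20 microglial markers summed to 245 to 293 normalised CPM (counts scaled to the effective library size) in second-set Input and to 16103 to 27730 in second-set MG_TRAP. In control MG_TRAP they summed to 3401 to 6568, above the 435 to 514 of control Input.

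The share of a library's assigned reads taken by the 86 members together differed between fractions. It was, in second-set Input, 2.08% ± 0.119 (SD, n = 5), in MG_TRAP 4.15% ± 0.635, in SN_input 3.50% ± 0.244 and in PeMP_TRAP 7.87% ± 1.07. All 5 PeMP_TRAP libraries lay above all libraries of the other fractions. In the first set the tamoxifen shares (letters D, E and F) were 0.179%, 0.608% and 0.583% in Input, 0.460%, 1.16% and 1.81% in MG_TRAP, 0.386%, 0.384% and 0.354% in SN_input and 0.704%, 1.03% and 4.49% in PeMP_TRAP. Control MG_TRAP held 0.0984%, 0.559% and 0.158%, and control PeMP_TRAP 0.220%, 0.361% and 0.239%.

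**Figure D1:**
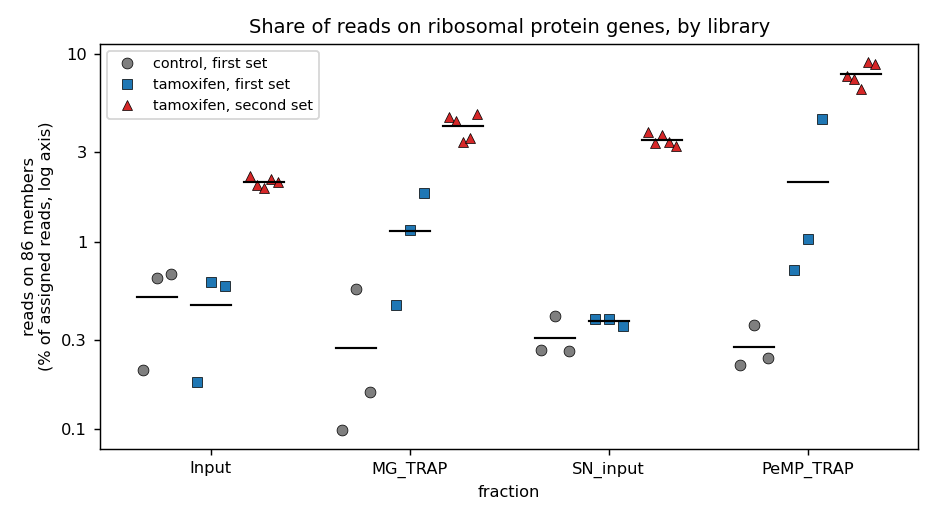
Share of assigned reads on the 86 ribosomal protein genes (percent, log axis) in each of the 44 libraries, by fraction, treatment and set. Second-set libraries lie between 1.93% and 9.03% and, within each fraction, above all first-set libraries.

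Within second-set Input, levels per exonic length (normalised CPM per kilobase, RPKM) spread widely among members. The highest were Rplp1 (679 RPKM), one of the acidic proteins of the stalk that recruits elongation factors, Rpl36 (517 RPKM) and Rps29 (446 RPKM). The lowest were Rpl10l, with no read in any of the 44 libraries, Rpl39l (0.0320 RPKM) and Rpl24 (0.279 RPKM). Rpl10l, Rpl39l and Rpl3l are paralogs known from testis or muscle, whereas Rpl24 is a core protein of the large subunit. Rpl24 shares 47.0% of its exonic bases with another annotated gene on the same strand, Gm28037, and Rpl13a (35.4%), Rpl36al (24.5%) and Rps10 (20.6%) follow. In second-set Input the median level of these 4 members was 0.548 RPKM, against 76.6 RPKM for the other 82. In first-set tamoxifen Input it was 6.17 RPKM against 9.82, and Rps10, at 0.562 RPKM in the second set, was at 10.95 there. The 20% limit was set after the levels had been seen, and how the counting assigned reads of overlapping genes is not given. The spread between libraries differed by set: the median SD of log2 CPM over members was 0.11 in second-set Input (n = 5) and 1.51 in first-set tamoxifen Input (n = 3).

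The first comparison asks which member mRNAs the immunoprecipitation holds at a higher level than the homogenate. In tamoxifen mice (n = 8 per fraction) 21 of the 83 members tested were higher in MG_TRAP than in Input and 1 was lower, at an adjusted p under 0.05 in edgeR with set as a covariate. Of all 15710 genes tested, 6.82% were called, 4.67% higher and 2.15% lower. The members' median log2 fold change was 1.12, against -0.14 for all genes. The 3 members not tested did not pass the filter on low counts. Both subunits took part: 10 of 34 small-subunit members and 11 of 49 large-subunit members were called higher.

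Rps9 (ENSMUSG00000006333, chromosome 7, 3703993 to 3706897, GRCm38), a small-subunit protein near the mRNA entry site, had the lowest p of the named members. In the second set its normalised CPM (letters G to K) were 272, 260.3, 233, 267 and 249 in Input and 1356, 1350.3, 930.1, 939 and 1445 in MG_TRAP. In the first set (D to F) they were 35.3, 73.3 and 61.2 and 319, 343 and 611. MG_TRAP lay above Input in every letter, with no overlap within either set, and the fitted log2 fold change was 2.52 (SE 0.32, adjusted p = 2.32e-07). The control libraries showed no such gap, with Rps9 at 54.8, 115 and 151 in Input and 28.2, 65.4 and 29.5 in MG_TRAP.

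Rps27l (ENSMUSG00000036781, chromosome 9, 66946086 to 66949516), a paralog of Rps27 known as a p53 target, rose by 2.53 (SE 0.69, adjusted p = 0.0155). Its level also depended on the set: MG_TRAP values were 76.5, 746 and 1623 in the first set and 57.7, 48, 25.1, 49.8 and 43.4 in the second. Rpl35, a large-subunit protein at the exit tunnel, rose by 2.13 (SE 0.49, adjusted p = 0.00346); 56.8% of its 50-base stretches also occur, matched on both strands, in transcripts of Wdr38, whose exons overlap those of Rpl35 on the opposite strand, and 15.95% occur in no other gene. The lowest of the called increases were Rps14 (1.12, adjusted p = 0.0373), Rpl8 (1.30, adjusted p = 0.0315) and Rpl14 (1.40, adjusted p = 0.0289). These calls were lost with 7, 6 and 6 of the 8 letters left out in turn (adjusted p up to 0.108, 0.11 and 0.129) and held without D; Rps27l lost its call without F (1.85, adjusted p = 0.166). The stalk base Rplp0 rose by 1.83 (SE 0.32), while Rplp1 (1.13, adjusted p = 0.184), Rplp2 (1.10, adjusted p = 0.141) and Rpsa (0.67, adjusted p = 0.568) did not pass.

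The single lower call was Rpl3l, the muscle paralog of Rpl3, and it rests on few reads. Its Input counts were 145, 0 and 0 in the first set and 3 to 31 in the second, and all 8 MG_TRAP libraries were at 0. Against the floor of 3 counts per library that a count of 0 allows, the bound on the fold is 1, so no fold is given.

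Within the second set the values of MG_TRAP and Input did not overlap for 65 of 86 members with MG_TRAP higher, against 12.3% of all genes. First-set values did so for 17 of 86, against 14.3% of all genes. The count moved with the libraries used. Fitted alone, the second set had 55 of 82 members higher (3.82% of all genes) and none lower, with a median of 1.06. In the first set alone (79 tested) no member passed in edgeR, the median was 1.70, and 10 (12.7%) had an unadjusted p under 0.05, against 14.1% of all genes. Without letter D 41 members were higher and 1 lower, and without any other single letter 16 to 18 were higher. Scaling by RLE factors lowered the median of all genes to -0.66 and left 15 members higher and 1 lower, with a member median of 0.58.

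Markers of other cells moved in the same comparison. All 20 microglial markers were higher in MG_TRAP (median 6.47). Of 7 plasma cell genes tested, 5 were higher; their sum was 591 to 1109 normalised CPM in second-set MG_TRAP and 85.1 to 124 in Input. Neuronal markers summed to 2263 to 5267 in second-set MG_TRAP and 9089 to 9870 in Input. The part of either cell type in the members' rise was not tested. In bulk RNA, fewer cells of a type and less RNA per cell cannot be told apart.

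**Figure D2:**
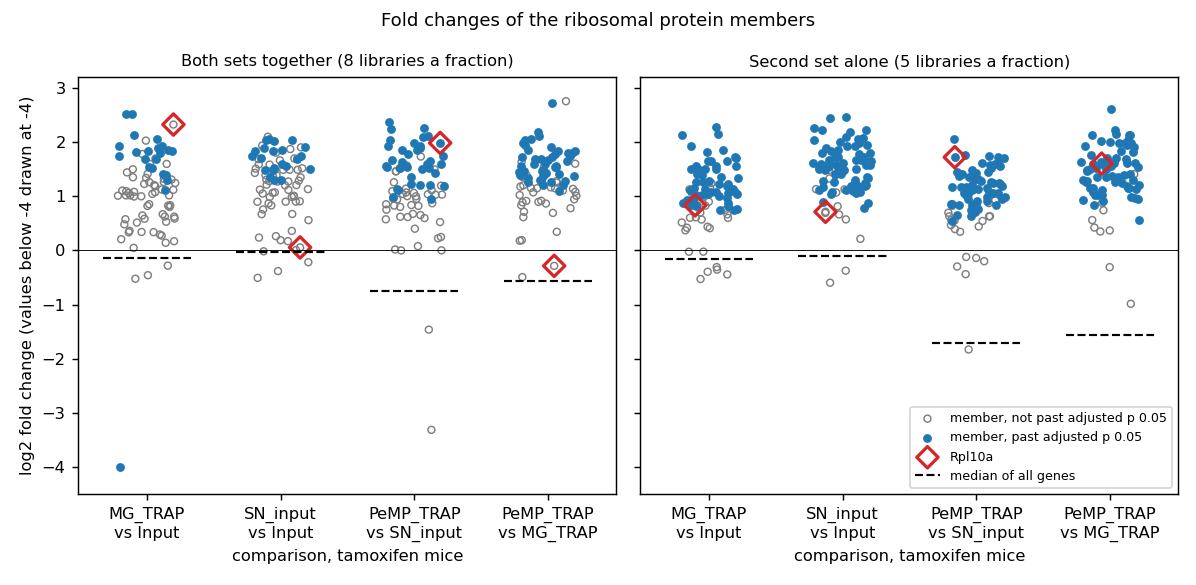
Fitted log2 fold changes of the members in 4 comparisons between fractions of tamoxifen mice, with both sets on the left and the second set alone on the right; filled points pass an adjusted p of 0.05 in edgeR and a dashed line marks the median of all genes. On the left, Rpl10a (diamond) lies among the lowest members for PeMP_TRAP over MG_TRAP and SN_input over Input, on the right for SN_input over Input alone, and the Rpl3l point at the lower edge stands for -6.45.

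The synaptosome fraction was then compared with the homogenate. In SN_input 23 of 83 members were higher than in Input and none was lower, against 2.08% and 0.465% of all genes (2.55% in either direction), with a median log2 fold change of 1.35 (all genes -0.02). Small-subunit members made up 13 of the 23. Rps21 (2.06) and Rpl35 (2.05) were the largest and the lowest were Rps3 (1.29), Rps2 (1.31) and Rplp0 (1.35). With single letters left out Rps21 lost its call in 6 of 8 fits (adjusted p up to 0.102), Rpl35 in 4, Rps3 and Rps2 in 6 and Rplp0 in 1. Rps21 stood at 177, 159, 146, 168 and 148 normalised CPM in second-set Input and 852, 654, 871, 693 and 698 in SN_input, with no overlap. First-set Rps21 values were 8.37, 282 and 260.4 and 109.6, 743 and 749.7, and the groups overlapped while SN_input was higher in each of the 3 letters.

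Second-set SN_input lay above Input without overlap for 78 of 86 members, against 20% of all genes, and first-set SN_input for 19, against 6.64%. The count of calls was 68 of 82 in the second set alone (3.46% of all genes) and 0 of 79 in the first (1 at an unadjusted p under 0.05 in edgeR, against 6.05% of all genes). It was 46 without letter D, and 14, 9, 9, 9, 15 and 11 without E, G, H, I, J and K. It was 12 with no filter, 3 with RLE factors, 13 in DESeq2 and 0 with total counts in edgeR (8 at an unadjusted p under 0.05). A block on the replicate letter raised the count. The member median was 0.68 with RLE factors and 0.35 with total counts, where that of all genes was -0.72 and -1.07. Oligodendrocyte markers summed to 25876 to 68409 normalised CPM in second-set SN_input and 4502 to 5479 in Input, and 18 of 20 microglial markers were higher; their part was not tested. Nuclear-encoded oxidative phosphorylation genes, chosen as another class of short abundant mRNAs, moved with the members: 24 of 90 were higher, with a median of 1.32.

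The immunoprecipitate of the synaptosomes was compared with SN_input. In PeMP_TRAP 38 of 83 members were higher than in SN_input and none was lower, while 6.15% of all genes were called higher and 26.1% lower. With no filter on low counts 23 were higher and 1 lower. The members' median was 1.19 and that of all genes -0.75. Rpl8 (2.38, SE 0.41), Rps27l (2.26, SE 0.68) and Rps9 (2.25, SE 0.32) were the largest, and Rpl7a (0.96), Rps2 (0.98) and Rpl37a (1.12) the lowest called. The 3 lowest lost their calls with 7, 6 and 7 of the 8 letters left out in turn (adjusted p up to 0.164, 0.123 and 0.129), and 26 to 52 members were higher over those fits, 52 without D. Rps9 stood at 958, 903, 962, 839 and 839 normalised CPM in second-set SN_input and 3501, 3871, 2694, 3659 and 2478 in PeMP_TRAP, and at 296, 140.5 and 168 and 1951, 343 and 2039 in the first set. The Rps9 groups did not overlap in either set.

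Rpsa and the stalk were part of this rise. Rpsa changed by 2.11 (SE 0.50, adjusted p = 0.00141), Rplp0 by 1.86 and Rplp1 by 1.65, and Rplp2 by 1.00 without passing (adjusted p = 0.0693). With the second set alone 62 of 82 members were higher (4.26% of all genes). In that fit 39.3% of all genes were lower and their median was -1.70. In the first set alone 1 of 79 was higher in edgeR, Rpl8, against 2.4% of all genes. There 18 (22.8%) had an unadjusted p under 0.05, against 23.7% of all genes. Second-set values did not overlap for 60 of 86 members, PeMP_TRAP being higher, against 2.53% of all genes, and first-set values for 28, against 8.05%. Microglial markers were higher in 20 of 20 and plasma cell genes in 6 of 7, summing to 1587 to 3801 normalised CPM in second-set PeMP_TRAP and 131 to 184 in SN_input; their part was not tested. The 6 border macrophage markers summed to 0 to 236 in second-set PeMP_TRAP (median 0) and 21.1 to 34.7 in SN_input. Of them Lyve1, Cd163, F13a1 and Ms4a7 were at 0 in all 5 second-set PeMP_TRAP libraries, while Mrc1 and Pf4 each had reads in at least 1. In first-set tamoxifen PeMP_TRAP the sum was 56.8 to 388.

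Between the immunoprecipitates, 45 of 83 members were higher in PeMP_TRAP than in MG_TRAP and none was lower, against 3.17% and 22% of all genes. The median was 1.37, with -0.57 for all genes, so the members were higher where most genes called were lower. Rpsa (2.71, SE 0.50), Rpl28 (2.19, SE 0.42) and Rplp1 (2.11, SE 0.48) led, and Rpl6 (1.09), Rpl27a (1.21) and Rpl32 (1.22) were the lowest called. Rpl6 and Rpl27a lost their calls with 6 of the 8 letters left out in turn (adjusted p up to 0.126 and 0.147), and Rpl32 with none. Of the plasma cell genes 3 of 7 were higher, and their sum was 591 to 1109 normalised CPM in second-set MG_TRAP and 1587 to 3801 in PeMP_TRAP, without overlap. Of the microglial markers 4 of 20 were higher and 2 lower, with sums of 16103 to 27730 and 23398 to 36535. The part of either in the members' rise was not tested.

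Rpsa had the largest fold change among the members called. Its normalised CPM were 589.6, 549, 441, 423 and 513 in second-set MG_TRAP and 2866, 2098, 2890.0, 3079 and 1558 in PeMP_TRAP. In the first set they were 1.28, 4.18 and 28.1 and 20.9, 28.5 and 248. Second-set values did not overlap for Rpsa and 70 of 86 members in all, PeMP_TRAP being higher, against 2.77% of all genes. First-set values did so for 5 of 86, against 2.92%, and Rpsa's first-set levels were lower throughout. In the second set alone 73 of 82 members were higher (4.42% of all genes), where 38.2% of all genes were lower and their median was -1.57. In the first set alone none of 79 was higher in edgeR (1 at an unadjusted p under 0.05, against 10.6% of all genes). The count was 33 to 60 with 1 letter left out (60 without D), 29 with RLE factors, 15 with total counts, 25 with no filter and 41 in DESeq2.

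As the 4 comparisons above share libraries, their values are set side by side without a test of likeness. The difference between the enrichments, PeMP_TRAP over SN_input minus MG_TRAP over Input, was tested directly. No member of 83 passed in edgeR (1 at an unadjusted p under 0.05, against 22.8% of all genes; 2 in DESeq2), the member median was -0.00, and all genes had a median of -0.79 with 0.388% called higher and 10.9% lower. In the second set alone Rpsa was higher (0.80, SE 0.25, adjusted p = 0.0213), and 6 members were lower, among them Rpl35 (-1.30), Rpl26 (-1.18), Rps25 (-0.96), Rps23 (-0.94) and Rpl13 (-0.74). There 0.589% of all genes were higher and 28.9% lower.

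**Figure D3:**
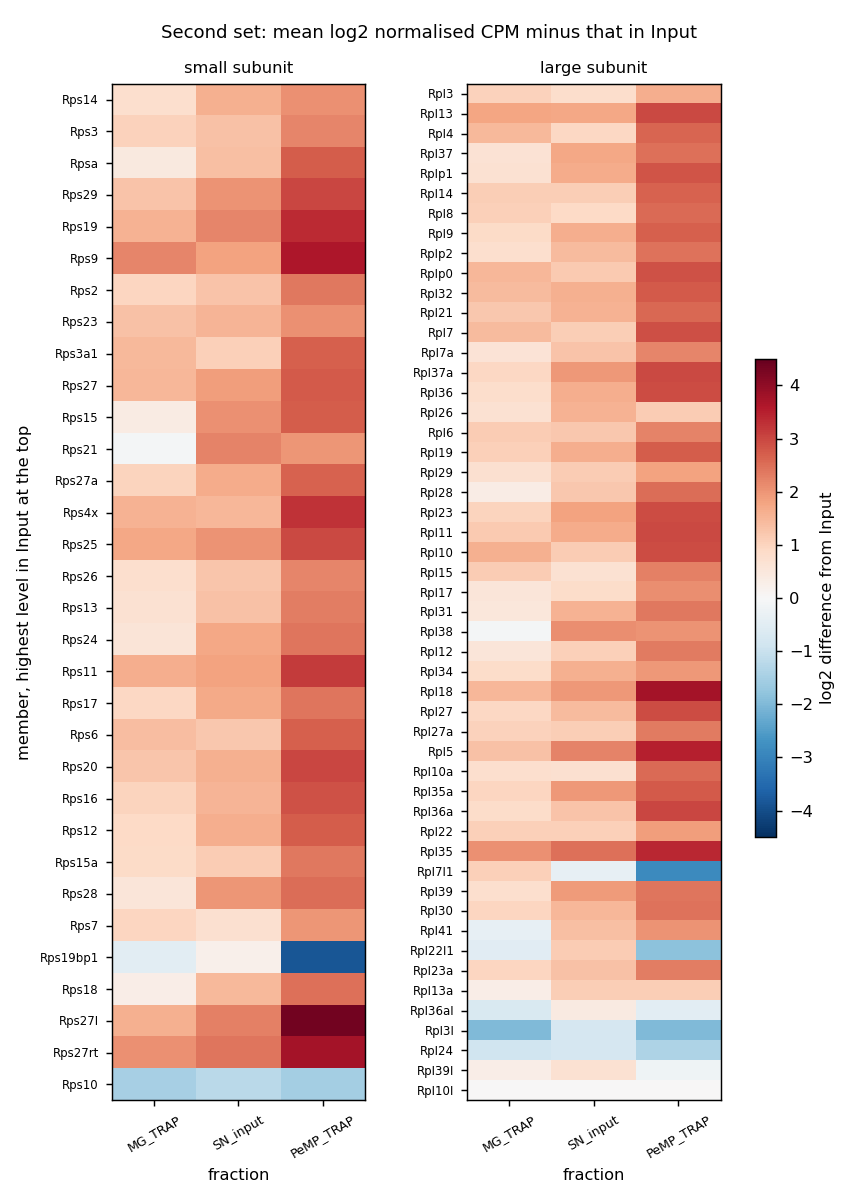
Mean log2 CPM of 83 members in the 4 fractions of second-set tamoxifen mice (n = 5 each), drawn as the difference from its Input mean (blue lower, red higher, log2 scale), with the highest Input level at the top. Most members are red in the 3 other fractions and darkest in PeMP_TRAP, whereas Rps10 is blue in all 3 and Rps19bp1, with 3 PeMP_TRAP libraries at 0, is dark blue there.

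A few members did not share the pattern, and those described here were chosen after their values had been seen. In the second set Rps19bp1 counts in PeMP_TRAP were 1507, 0, 0, 0 and 2209, while Input gave 715, 670, 535, 713 and 546. Rpl22l1, a paralog of Rpl22, was at 15.9 ± 13.2 normalised CPM (SD, n = 5) in PeMP_TRAP and 52.3 ± 5.72 in SN_input, whereas Rpl22 itself was at 285 ± 133 and 150 ± 21.5. Rpl7l1, a relative of Rpl7, was at 81.6 ± 86.9 in PeMP_TRAP and 47.2 ± 10.3 in SN_input, beside 1691 ± 480 and 472 ± 32 for Rpl7. The spread of Rpl22l1 and Rpl7l1 in PeMP_TRAP was wide, and their log2 fold changes against SN_input in the second set alone, -1.83 (SE 0.96) and 0.63 (SE 1.24), did not pass. Rps27l was at 315 ± 153 in PeMP_TRAP and 69.3 ± 10.2 in SN_input, and its second-set change of 2.05 (SE 0.39) passed.

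Across the 20 second-set libraries the members moved together more closely than across the 24 first-set libraries. The median Pearson's r of log2 CPM over pairs of members was 0.902 in the second set (82 members) and 0.518 in the first (73 members). These values describe libraries that share fraction, depth and scaling.

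Rpl10a encodes the protein that carries the tag. Its transcript (ENSMUSG00000037805, chromosome 17, 28328471 to 28331033) was at 89.7, 79.9, 75.6, 85.9 and 80 normalised CPM in second-set Input, 152, 145, 112, 118 and 180.2 in MG_TRAP, 151, 128, 147, 136 and 124 in SN_input and 456, 363, 563, 548 and 526 in PeMP_TRAP. PeMP_TRAP lay above all other fractions and Input below them, while MG_TRAP and SN_input overlapped. Per length, Rpl10a ranked 61 of 86 members in second-set Input and 64 in PeMP_TRAP.

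In the first set Rpl10a was lower in most libraries and uneven. Its counts were 113, 32 and 3 in tamoxifen Input, 172, 28 and 204 in MG_TRAP, 0, 2 and 1 in SN_input and 1, 9 and 5 in PeMP_TRAP. Control libraries gave 88, 11 and 8 in Input, 10, 0 and 262 in MG_TRAP, 8, 0 and 52 in SN_input and 0, 0 and 0 in PeMP_TRAP. Tamoxifen and control counts of Rpl10a overlapped in Input, MG_TRAP and SN_input and did not in PeMP_TRAP. Tamoxifen over control did not pass in edgeR in any fraction, with a log2 fold change of 0.30 in Input (SE 2.08, adjusted p = 1), 2.18 in MG_TRAP (SE 2.17, adjusted p = 0.666) and -2.40 in SN_input (SE 2.28, adjusted p = 1). In PeMP_TRAP the adjusted p was 0.116, and the fitted value depends on the prior count because all 3 controls were at 0. Second over first set in tamoxifen mice, Rpl10a rose by 4.46 in Input (SE 1.01, adjusted p = 0.0113, up to 0.0670 without F or G) and passed in SN_input (adjusted p = 7.93e-05) and PeMP_TRAP (adjusted p = 3.70e-05), where first-set tamoxifen counts were 0 to 9. In SN_input those counts were all under 3, so no fold is given. In MG_TRAP the log2 difference was 2.13 (SE 0.88, adjusted p = 0.162 in edgeR). The files count reads of Rpl10a without telling the endogenous transcript from the fusion.

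Over both sets Rpl10a changed by 2.33 from Input to MG_TRAP (SE 0.78, adjusted p = 0.0654), rank 3 of 83 members tested, and by 1.99 from SN_input to PeMP_TRAP (SE 0.74, adjusted p = 0.0363), rank 7. Without letter F the first was 0.86 (adjusted p = 0.704), and it was 2.16 to 2.52 without any other. The call of the second was lost in 6 of 8 fits with 1 letter left out (adjusted p up to 0.0754), all but those without D and F. The fitted Rpl10a value was -0.28 between PeMP_TRAP and MG_TRAP (SE 0.82, rank 82) and 0.06 between SN_input and Input (SE 0.77, rank 78), fits that include the first-set SN_input and PeMP_TRAP counts of 0 to 9. Its sign between SN_input and Input depended on single letters and on the scaling, being -0.74 with RLE factors and -0.93 with total counts. Its sign between PeMP_TRAP and MG_TRAP depended on single letters, being 0.22 without D and 0.97 without F. In the second set alone Rpl10a was higher in MG_TRAP by 0.83 (SE 0.24, adjusted p = 0.0405), rank 56 of 82, and in PeMP_TRAP over SN_input by 1.72 (SE 0.24, adjusted p = 1.18e-05), rank 5. PeMP_TRAP over MG_TRAP was 1.60 there (SE 0.24, adjusted p = 2.74e-05), rank 31 and above the member median of 1.40. SN_input over Input was 0.71 (SE 0.24, adjusted p = 0.130), rank 76 and below the member median of 1.49. The difference of enrichments of Rpl10a was -0.34 over both sets (SE 1.03, adjusted p = 0.933, rank 69 of 83) and 0.89 in the second set alone (SE 0.34, adjusted p = 0.0538, rank 2 of 82), and passed in neither. The members whose log2 CPM followed Rpl10a most closely were Rpl28 (r = 0.903), Rps23 (r = 0.898) and Rpl21 (r = 0.895) over all 44 libraries, and Rpl14 (0.979), Rpl36a (0.972) and Rps4x (0.963) over the second set.

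**Figure D4:**
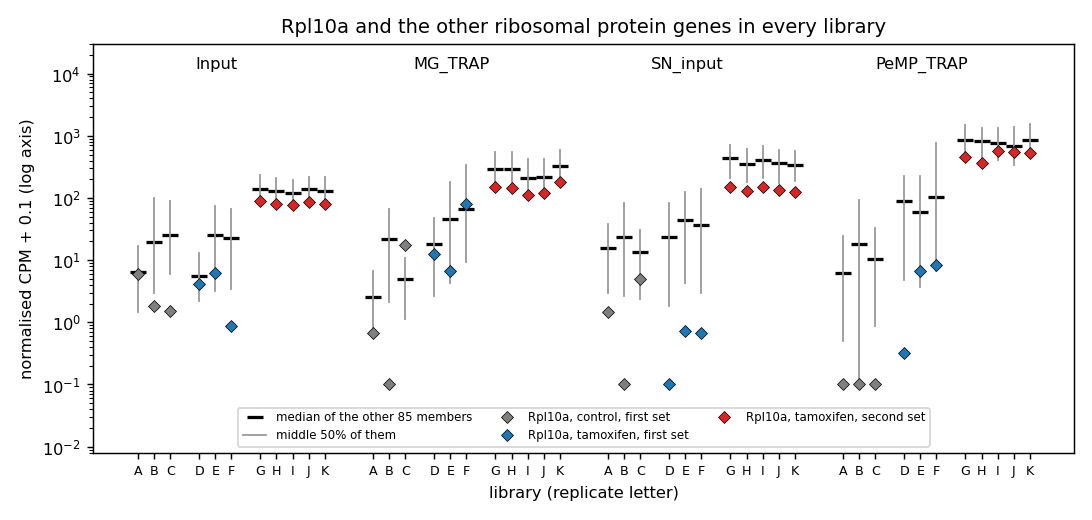
Normalised CPM of Rpl10a (diamonds, log axis, with 0.1 added) in each library, with the median and the middle 50% of the other 85 members as black bars and grey lines. Second-set Rpl10a values run from 75.6 to 563, and first-set values reach at most 78.5 and are 0 in the 3 control PeMP_TRAP libraries.

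The effect of tamoxifen could be tested in the first set alone (n = 3 per group). In PeMP_TRAP 9 of 82 members were higher in tamoxifen than in control libraries and none was lower, beside 5.56% of all genes called higher and 5.56% lower. The median was 2.58, or 2.25 with the 17 members that were at the floor in 1 group set to their bounds. Among the 9 were Rpl8 (4.40), Rpl14 (3.68), Rpl22 (3.97), Rplp1 (3.95), Rps3 (3.34), Rps9 (3.53), Rps27l (4.70) and Rps19bp1. Rps9 stood at 40.2, 85.9 and 167 normalised CPM in the controls and 1951, 343 and 2039 in tamoxifen, with no overlap. Rps19bp1 counts were 1, 3 and 1 in the controls and 2, 302 and 76 in tamoxifen. The groups overlapped in CPM and the controls were near the floor, so no fold is given.

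Group values of 42 of 86 members did not overlap in PeMP_TRAP, tamoxifen being higher, and for none was it lower; the same held for 11.9% of all genes. The count of calls turned on single letters, with 21 without B, 5 without C, 5 without E and 0 without F, and was 39 in DESeq2. No share of all genes is given for these fits, so the counts show only how the calls moved. Rpl14 lost its call without C, E or F, Rps27l without A, B, E or F, and Rps19bp1 without C, E or F. Microglial markers were higher in 15 of 20, and neuronal markers lower in 4 of 15; their part was not tested.

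In MG_TRAP the median was 2.34, but none of 82 members passed in edgeR (25, or 30.5%, at an unadjusted p under 0.05, against 15.9% of all genes; 17 in DESeq2), as no gene of 14771 did. With 1 letter left out the median was 1.81 to 3.90, the lowest without F and the highest without B, where 1 member passed. Tamoxifen was above control without overlap for 24 of 86 members, against 15% of all genes. In Input no member and no gene of 14771 passed in edgeR (0 members at an unadjusted p under 0.05, against 3.06% of all genes, and 0 in DESeq2). The member median was -0.01 (-0.40 to 0.32 with 1 letter left out). In SN_input, too, no member and no gene passed in edgeR (0 members at an unadjusted p under 0.05, against 3.35% of all genes, and 0 in DESeq2). The member median was 1.17, and 18 members did not overlap, tamoxifen being higher, against 3.54% of all genes. Among the control mice, MG_TRAP had a median of -0.96 against Input (-2.32 to -0.46 with 1 letter left out), with no member called (3 at an unadjusted p under 0.05, against 7.45% of all genes; 0 in DESeq2). Control PeMP_TRAP against SN_input had a median of 0.05 with no member called (7 at an unadjusted p under 0.05, against 17.4% of all genes; 3 in DESeq2). The treatment differences of the enrichments, tested as interactions, gave no call in edgeR for MG_TRAP over Input (median 2.44, 8 at an unadjusted p under 0.05 against 9.19% of all genes, 4 in DESeq2) or for PeMP_TRAP over SN_input (median 1.50, 9 against 19.8%, and 5), the latter beside 0.914% of all genes called higher and 0.325% lower.

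Second-set tamoxifen libraries were compared with first-set tamoxifen libraries within each fraction (5 against 3). Set stands for everything that differs between the libraries, including depth and reads left out as not unique, which cannot be told apart. In Input 42 of 84 members were higher in the second set and none was lower, against 0.635% and 2.12% of all genes (2.76% in all), with a median of 2.17. In MG_TRAP 40 were higher and 4 lower (1.03% and 6.54% of all genes, 7.57% in all), with a median of 1.78. In SN_input 45 were higher and none lower (0.768% and 0.663%, 1.43% in all), with a median of 2.93, or 2.61 at the bounds. In PeMP_TRAP 50 were higher and 5 lower (2.25% and 27.6%), with a median of 2.78.

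The members ran from near absence in the first set to similar levels in both. Rpl10 counts were 0, 0 and 0 in first-set tamoxifen PeMP_TRAP and 15953 to 44997 in the second set, at least 237-fold higher in CPM against the floor. Rpl5, which carries 5S RNA into the ribosome, had counts of 0, 2 and 2 in first-set MG_TRAP and 4078 to 8182 in the second. Rps3, by contrast, was at 2782, 780.2 and 2947 normalised CPM in first-set PeMP_TRAP and 2337, 1267, 1271, 2737 and 1514 in the second, and those ranges overlapped.

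Members lower in the second set were few. Rps10 counts were 294, 472 and 463 in first-set MG_TRAP and 58, 9, 19, 0 and 0 in the second, a log2 difference of -6.92 (SE 1.82, adjusted p = 0.0135). Rpl36al (-6.03), Rps27l (-4.19) and Rpl41 (-3.70) were the other 3 called lower in MG_TRAP. In PeMP_TRAP, Rps10 (-8.05), Rpl36al (-5.72) and Rpl41 (-2.47) were again lower, with Rpl39l and Rpl3l, whose second-set libraries were all at 0.

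The size of the set difference went with how much of a member's sequence it shares with other genes. Retrocopies of ribosomal protein mRNAs are common in mouse, and 298 genes named -ps were listed for 60 of the members. A member's uniqueness was taken as the percentage of its 50-base stretches that occur in no transcript of another gene on either strand; the median was 76.9%, the lowest 8.92% (Rps27rt), and 82 of 86 members shared at least 1 stretch. For the 24 members tested under 70% unique the median log2 set difference in Input was 3.52, for the 37 from 70% to 85% it was 3.13, and for the 23 at 85% or more it was 0.86. In MG_TRAP the medians were 4.07, 3.09 and 0.19, in SN_input 4.47, 3.68 and 1.59, and in PeMP_TRAP 4.29, 3.92 and 0.05. Across members, which are not independent replicates, Spearman's rho between uniqueness and the set difference was -0.48, -0.49, -0.40 and -0.50 in the same order (n = 84), and with log2 exonic length 0.14, 0.11, 0.06 and 0.07. The limits of 70% and 85% were set after the data had been seen.

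**Figure D5:**
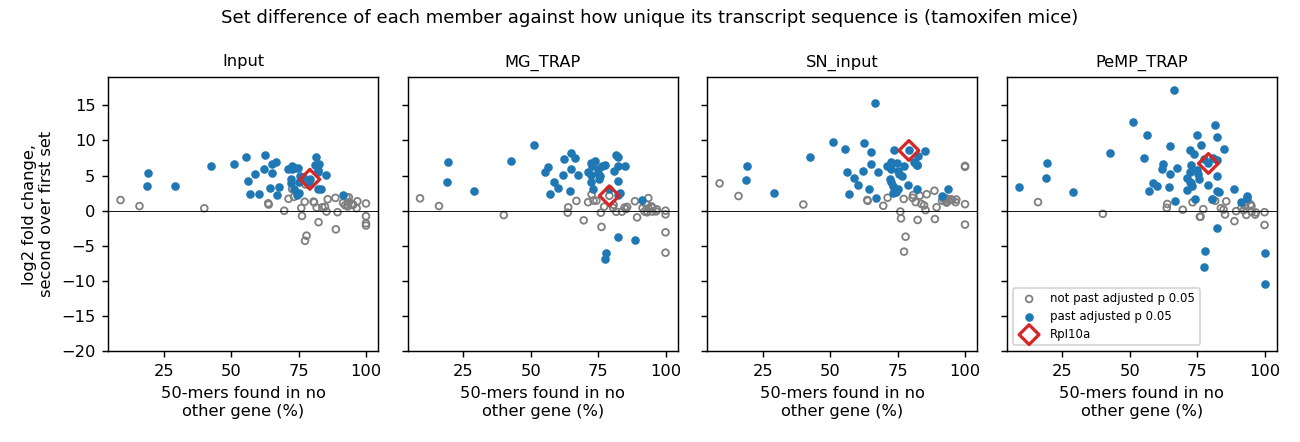
Log2 difference of second-set over first-set tamoxifen libraries against the percentage of 50-base stretches unique to the member, 1 panel per fraction and 1 point per member tested (n = 84). Points with a low percentage sit mostly above 0, while those at 85% or more centre on 0.05 to 1.59.

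Uniqueness is a property of the annotation, and the read length and mapping limits of either set are not given, so the part of shared sequence in the set difference was not tested. Rpl10a is 79.2% unique and shares 20.8% of its stretches with Rpl10a-ps1. Rps3 is 96.8% unique and Rpl10 66.5%. Reads counted on the -ps genes came to 0.797 to 5.12 per 100 reads on the members in a library. With them added to their members, the median log2 fold changes were 1.22 for MG_TRAP over Input, 1.36 for PeMP_TRAP over SN_input, 1.38 for PeMP_TRAP over MG_TRAP and 1.36 for SN_input over Input.

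Whether the enrichment itself differed between sets was tested as an interaction. For MG_TRAP over Input no member of 84 passed in edgeR (4 at an unadjusted p under 0.05, against 5.96% of all genes; 2 in DESeq2), with a median of -0.57. For PeMP_TRAP over SN_input 4 members were higher in the second set and 3 lower, against 0.189% and 14.9% of all genes, with 2 higher and none lower without letter D and 3 higher and 1 lower without J. With pseudogene counts added to their parent members 1 was higher and 3 lower. Fewer members passed with the replicate letter as a block. Rpl9, Rps6, Rps27 (5.05) and Rpl27 (4.36) were the higher ones, and each lost its call with at least 1 letter left out, Rps6 with 4 of 8. First-set tamoxifen PeMP_TRAP counts of Rpl9 were 1, 0 and 1 and of Rps6 0, 2 and 0, at or under the floor, so their fitted differences are no measure of size. With pseudogenes added Rps27 passed (4.86, adjusted p = 0.0200), while Rpl27 (2.97, adjusted p = 0.0539), Rps6 (0.93, adjusted p = 0.748) and Rpl9 (-0.12, adjusted p = 1.00) did not. Rps3 was lower (-1.83, SE 0.59, adjusted p = 0.0304; -1.10 and an adjusted p of 0.247 with RLE factors, and no call with 5 of 8 letters left out), and Rpl39l and Rpl3l were at or near 0 in most libraries.

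Other genes of the translation machinery give a measure of how far the pattern reaches. Of 19 TOP mRNAs that code for elongation and initiation factors and related proteins, 2, 13, 12 and 1 were higher in MG_TRAP over Input, PeMP_TRAP over SN_input, PeMP_TRAP over MG_TRAP and SN_input over Input, with medians of 0.84, 1.50, 1.58 and 0.66. Mitochondrial ribosomal proteins, which serve the organelle's own ribosome, gave 1, 3, 3 and 2 higher calls of 77 in the same order, with medians of 0.09, 0.18, 0.71 and 0.57. Ribosome biogenesis factors gave 0, 7, 2 and 0 of 27. Oxidative phosphorylation genes gave 0, 1, 27 and 24 of 90, with 15 called lower in PeMP_TRAP over SN_input. These lists were written with earlier results of the data known, and nothing particular to a list is read from the counts.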

How the data were processed

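For each of 44 libraries the deposited values are unnormalised HTSeq counts by Ensembl gene; libraries were made with SMART-Seq v4 and NEBNext kits, per the labels' protocols. The submitters' processing notes name FastQC 0.11.7, Trimmomatic 0.38, Bowtie2 2.3.5, STAR 2.7.0d, HTSeq 0.9.1 and edgeR; the genome build, counting mode and strand setting are not given in the sources used here. All identifiers shared by both sets were found in GENCODE M21, which gave symbols and lengths.

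Counts were fitted in edgeR 4.0.16 (R 4.3.3) on all genes with TMM factors, filterByExpr (minimum count 10), the quasi-likelihood test and Benjamini-Hochberg adjustment at 0.05. Fraction comparisons used 32 tamoxifen libraries with set as a covariate; treatment comparisons used the 24 first-set libraries. DESeq2 1.42.0, other scalings, no filter, single sets, left-out letters and added pseudogene counts were alternatives. Log2 CPM used a prior count of 2. The scripts were tested on simulated counts with a single dispersion for every gene and library, so the unequal spread of the sets was not covered.

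Named members were Rpl10a throughout, the 3 largest and 3 lowest log2 fold changes of a comparison among members past the threshold with an average log2 CPM of at least 4, the stalk proteins, Rpsa, the paralogs with Rps19bp1, the 3 highest and lowest in Input per length and the 3 most like Rpl10a. Some results are not reported here. Others named were chosen after their values were seen. Members and lists were chosen with earlier results of these data known. A floor of 3 counts is the limit that a count of 0 allows; PCR reads without molecular identifiers make it cover counting error only.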

Additional observations from a re-analysis of the deposited data

Results flagged for a closer look

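Second-set groups of 5 libraries were searched for a value whose highest or lowest library lay apart from the other 4 by Dixon's criterion (critical value 0.71). The search covered 92 groups, for 22 members chosen by the naming rule and the summed share, and found 4, all single members, where chance gives about 1 in 20. Rpsa in Input was 406 normalised CPM in letter G, with the others at 346 to 362. Rpl7a in Input was 231 in letter G, with the others at 192 to 202. Rpl27a in Input was 76.7 in letter I, with the others at 83.3 to 85.6. Rpl3l in SN_input was 2.72 in letter J, with the others at 0 to 0.383.

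For 7 of 84 members the log2 enrichment of PeMP_TRAP over SN_input differed between the sets by the interaction term in edgeR. Of all genes 15.1% did. The second set was higher for Rpl9 (5.47, SE 1.69, adjusted p = 0.0233), Rps6 (5.20, SE 1.66, adjusted p = 0.0280), Rps27 (5.05, SE 1.49, adjusted p = 0.0171) and Rpl27 (4.36, SE 1.17, adjusted p = 0.00873). It was lower for Rps3 (-1.83, SE 0.59, adjusted p = 0.0304). Each of these members lost its call in some fits with a letter left out, and Rps3 also with RLE factors. Rpl39l (-16.67) and Rpl3l (-12.39) had no reads in second-set PeMP_TRAP, and Rpl9 and Rps6 had at most 2 in first-set PeMP_TRAP, so the fitted values of these 4 are no measure of size. With pseudogene counts added, Rps27 (4.86) and Rps3 (-1.83) passed, and Rpl27 (2.97), Rps6 (0.93) and Rpl9 (-0.12) did not.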

How the results depend on the processing

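Of the alternatives, using 1 set moved the fraction comparisons most. The share of all genes called moved as well. For PeMP_TRAP over SN_input it was 2.4% higher and 0.47% lower in the first set alone, and 4.26% and 39.3% in the second. For settings other than single sets no such share is given, so those counts show only how the members' calls moved. Members called numbered 0 in the first set and 55 in the second for MG_TRAP over Input, 1 and 62 for PeMP_TRAP over SN_input, 0 and 73 for PeMP_TRAP over MG_TRAP, and 0 and 68 for SN_input over Input; the difference of enrichments gave 7 in the second set. RLE factors gave 29 for PeMP_TRAP over MG_TRAP and 3 for SN_input over Input, total counts 15 and 0, and no filter 25 and 12, with 24 for PeMP_TRAP over SN_input. Total counts gave 1 for the treatment difference of PeMP_TRAP over SN_input. DESeq2 gave 13 for SN_input over Input, 2 for the difference of enrichments, 17 for tamoxifen over control in MG_TRAP and 39 in PeMP_TRAP, 3 for control PeMP_TRAP over SN_input, 4 and 5 for the treatment differences of MG_TRAP over Input and PeMP_TRAP over SN_input, and 2 for the set difference of MG_TRAP over Input. Leaving out 1 letter gave 16 to 42 for MG_TRAP over Input, 9 to 46 for SN_input over Input, 0 to 1 and 0 to 21 for tamoxifen over control in MG_TRAP and PeMP_TRAP, and 2 to 6 for the set difference of PeMP_TRAP over SN_input (2 without D, 4 without J). With pseudogene counts added, that set difference gave 4 calls, 1 higher and 3 lower, a reversed balance. The cause was not tested.

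Letters were not taken to pair libraries, by a limit of 0.1 on the correlation of deviations. Of same-letter correlations 7 of 66 exceeded it, and 1 of 192 between letters did. For Input with MG_TRAP the medians were 0.079 and -0.033. Same-letter values ran higher, and the limit does not show that pairing is absent. Whether libraries of a letter share an animal is not given. With the replicate block SN_input over Input gave 38 calls and the set difference of PeMP_TRAP over SN_input 3; no other count moved by over 1.5 times. Treatment and set comparisons share no letters, so no paired analysis of them was possible.

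For Rpl10a the sign changed in 5 comparisons that were not called. SN_input over Input was -0.74 with RLE factors, -0.93 with total counts, -0.11 with no filter, -0.72 in DESeq2, -0.19 with the block, -3.19 in the first set alone, 0.71 in the second alone and -0.19 to 0.44 with 1 letter left out. PeMP_TRAP over MG_TRAP was 0.94 with pseudogenes added, 0.069 with the block, 1.60 in the second set alone and -0.67 to 0.97 with 1 letter left out (0.22 without D, 0.97 without F). The difference of enrichments, -0.34, was 0.22 with RLE factors and in DESeq2, 0.19 with total counts, 0.29 with pseudogenes added, 0.26 with the block, 0.50 and 0.89 in the first and second set alone, and -0.71 to 1.06 with 1 letter left out (1.06 without F). Tamoxifen over control became -0.24 in Input and 0.19 in SN_input with pseudogenes added, and was -0.25 to 1.19 in Input with 1 letter left out (-0.05 without C, -0.25 without E). The set difference of PeMP_TRAP over SN_input for Rpl9 was -0.12 with pseudogenes added. In the first set the floor of 3 counts corresponds to as much as 4.05 CPM of assigned reads in a library, against at most 0.360 in the second set.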
